A study of Mus musculus with 7 samples.

Results

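Genes of cholesterol and fatty acid synthesis, 30 in number, were followed in mouse embryonic fibroblasts under chemical reprogramming, with the Syk inhibitor R406 or with its solvent DMSO. They were chosen by symbol, matched to mouse Ensembl gene IDs, and all 30 were found among the 53715 genes of the deposited expression table. They comprised 7 genes of the mevalonate and isoprenoid steps, 11 genes of the steps between squalene and cholesterol, 5 genes that control SREBP, 1 sterol carrier and 6 genes of fatty acid synthesis.

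Cholesterol is built from acetyl-CoA through mevalonate, isoprenoid units and squalene, and fatty acids are built from the same acetyl-CoA through malonyl-CoA. Both routes are switched on by the SREBP transcription factors, which are held in the endoplasmic reticulum by SCAP and INSIG while sterols are plentiful. When sterols run low, SCAP carries SREBP to the Golgi, where proteases free its active part, and many sterol enzymes are then transcribed together with NF-Y bound nearby at CCAAT boxes. Fibroblasts make and take up cholesterol for their membranes, and growth in serum supplies them with lipoprotein cholesterol.

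RNA-seq was run on 2 libraries with R406 and 2 libraries with DMSO. CUT&Tag, which cuts and tags DNA beside an antibody, was run for FLAG-tagged Nfatc1 on 1 library with R406, 1 with DMSO and 1 blank, which was not analysed here. The title of the study links Syk to calcineurin and NFAT in reprogramming, and the comparison here asks how lipid synthesis genes stood when that kinase was inhibited. R406 is the active metabolite of fostamatinib and also acts on kinases other than Syk. All cells were OG2 embryonic fibroblasts, strain CBA-Tg(Pou5f1-EGFP)2Mnn/J, from embryonic day 13.5, and carried a fluorescent reporter under Pou5f1. For RNA-seq, passage 3 cells with R406 and passage 3 cells with DMSO were held in the same Stage 1 medium, with 10% KSR and 10% FBS, basic fibroblast growth factor, VPA, CHIR99021, 616452, Parnate, Forskolin, AM580, EPZ004777 and vitamin C. That medium was renewed at intervals of 4 days over a protocol of 12 days. Neither the day of RNA harvest nor the R406 dose is given in the sources used here. For CUT&Tag, both groups also carried rtTA and TetO-Flag-Nfatc1 lentivirus, were grown with Dox, and received R406 or DMSO for 4 days, so the Nfatc1 read there was an introduced, tagged protein. Serum and serum replacement, which contain lipids, were thus shared by the R406 and DMSO cells, as was forskolin, which raises cyclic AMP.

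Levels are given in TPM, a transcript level that the authors normalised for gene length and library total. A table of TPM keeps no read depth, so counting error cannot be given. Between 13537 and 14045 genes reached 1 TPM in each library. Ribosomal protein genes took 19.8% and 23.4% of the total in R406 libraries, against 14.4% and 16.2% in DMSO libraries, and mitochondrial transcripts took 6.72% and 10.3% against 10.5% and 14.2%. Differences were tested with limma on log2(TPM + 1), in a two-sided test whose p-values were adjusted (Benjamini-Hochberg) across 13929 genes averaging 1 TPM or more, and a gene was called at an adjusted p of 0.05 or less. No label states that replicates were grown separately, so a p-value reflects only how far these libraries spread, which may be technical. In bulk RNA, fewer cells of a type and less RNA per cell cannot be told apart.

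Cell type markers moved with the treatment. All 9 tested macrophage markers of 11 fell, with a summed level of 7.47 and 7.53 TPM in R406 libraries and 275 and 234 TPM in DMSO libraries, and Ptprc was listed at 0 in both R406 libraries and Tyrobp and Adgre1 in 1 of them. All 5 epithelial markers rose, with sums of 659 and 376 TPM in R406 libraries and 72.9 and 93.5 TPM in DMSO libraries. Of 9 fibroblast markers, 1 was called higher (Col3a1, a fibrillar collagen) and none lower. Their sums were 4543 and 3391 TPM with R406, against 3187 and 2812 TPM with DMSO. The log2 difference was positive in 4 and negative in 5 of the 9, with a median of −0.0032. Col3a1 had 786 and 616 TPM with R406, against 215 and 252 TPM with DMSO. Thy1 had 837 and 749 TPM with R406, against 1145 and 1065 TPM with DMSO. Fat cell markers were low throughout, with sums of 10.9 and 6.23 TPM with R406, against 17.9 and 10.3 TPM with DMSO, and Cidec and Lep were listed at 0 in all 4 libraries. Of 7 hepatocyte and endoderm markers, Gata4, Sox17 and Apoa1 rose and Alb fell among 5 tested, with sums of 222 and 125 TPM in R406 libraries and 42.7 and 46.8 TPM in DMSO libraries. Gata4, an endoderm transcription factor, had 61.8 and 47.7 TPM with R406, against 6.44 and 11.9 TPM with DMSO. Of 4 markers of steroid-making cells 2 were tested, and Star, the mitochondrial cholesterol importer, fell, while Cyp17a1 was listed at 0 in all 4 libraries. The sums of this list were 2.47 and 2.42 TPM with R406, against 7.67 and 5.69 TPM with DMSO. The part of these cell types in the lipid gene values was not tested.

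Promoter sequences show what the sterol and fatty acid genes share at their starts. Sequences were available from RefSeq (GRCm38.p6, the mm10 build) for 24 members and ran from 250 bases before to 50 bases after the gene start. They were searched on both strands for TCACNCCAC, the core of the sterol regulatory element that SREBP binds, for CCAAT, the NF-Y site, and for CACGTG, an E-box that SREBP proteins can also bind. These motifs did not share letters in any of the windows printed here. Scd1, Scd2, Fdft1, Sqle, Stard4 and Fdps are the members without a sequence. The only window of Acaca (chr11:84195188-84195487) lay at a start inside the gene. Its outer start, at 84129635, was not searched. The promoters of 5 members are shown because each carries a later result. Hmgcs1 (chr13:119690101-119690400, plus strand) held the one sterol element match, Mvk (chr5:114444019-114444318, plus strand) had the most CCAAT boxes, and Hsd17b7 (chr1:169969156-169969455, minus strand) was the gene with the smallest p. Srebf2 (chr15:82147019-82147318, plus strand) had the highest Nfatc1 peak and Fasn (chr11:120824498-120824797, minus strand) is the central enzyme of fatty acid synthesis. Each is written 5′ to 3′ along its gene, and capitals mark TCACNCCAC and CCAAT matches on either strand, so that ATTGG in capitals is a CCAAT box on the opposite strand.
Hmgcs1: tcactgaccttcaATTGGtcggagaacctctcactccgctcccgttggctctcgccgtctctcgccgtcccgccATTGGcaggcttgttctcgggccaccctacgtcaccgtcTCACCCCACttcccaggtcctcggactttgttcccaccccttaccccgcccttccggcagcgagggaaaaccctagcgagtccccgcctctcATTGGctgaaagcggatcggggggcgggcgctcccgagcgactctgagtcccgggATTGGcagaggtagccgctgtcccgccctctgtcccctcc
Mvk: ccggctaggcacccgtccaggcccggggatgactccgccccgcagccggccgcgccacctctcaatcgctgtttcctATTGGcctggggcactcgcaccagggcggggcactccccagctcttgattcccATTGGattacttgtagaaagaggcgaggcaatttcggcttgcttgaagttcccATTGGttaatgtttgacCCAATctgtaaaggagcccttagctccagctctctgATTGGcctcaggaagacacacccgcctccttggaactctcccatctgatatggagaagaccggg
Hsd17b7: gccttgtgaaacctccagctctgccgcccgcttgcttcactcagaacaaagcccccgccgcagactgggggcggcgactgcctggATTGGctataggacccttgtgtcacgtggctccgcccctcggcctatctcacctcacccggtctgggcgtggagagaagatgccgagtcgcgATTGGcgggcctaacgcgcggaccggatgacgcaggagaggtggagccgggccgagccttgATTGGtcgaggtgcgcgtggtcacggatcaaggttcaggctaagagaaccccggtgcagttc
Srebf2: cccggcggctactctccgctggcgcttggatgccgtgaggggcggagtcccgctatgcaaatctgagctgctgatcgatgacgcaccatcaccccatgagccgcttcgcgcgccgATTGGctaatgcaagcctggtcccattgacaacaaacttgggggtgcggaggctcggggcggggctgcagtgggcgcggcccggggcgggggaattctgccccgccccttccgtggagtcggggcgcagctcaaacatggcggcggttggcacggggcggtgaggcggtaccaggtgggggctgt
Fasn: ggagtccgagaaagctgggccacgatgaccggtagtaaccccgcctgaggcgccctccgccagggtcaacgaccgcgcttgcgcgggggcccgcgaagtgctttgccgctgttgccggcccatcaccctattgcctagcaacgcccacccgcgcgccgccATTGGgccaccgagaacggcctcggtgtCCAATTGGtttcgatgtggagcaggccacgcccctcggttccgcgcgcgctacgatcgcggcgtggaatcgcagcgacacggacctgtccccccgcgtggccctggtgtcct

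CCAAT boxes were frequent among the members. A gene was counted if any of its windows held a match, and some members, such as Insig2 and Dhcr7, had several windows. At least 1 CCAAT box was found in 20 of the 24 members with a sequence (83.3%), against 41.1% of 27025 genes and 42.9% of tested genes. The 15 sterol synthesis genes with a promoter accounted for 14 of these, and 2 of the 4 fatty acid genes, Fasn and Acly, had one. For Acaca only the start inside the gene was searched. In Mvk, 5 CCAAT boxes lay between −173 and −10, counted from 0 at the gene start, and Hmgcs1 had 4 of them. In Fasn a pair of boxes on opposite strands overlapped between −62 and −55, which prints as a single run of capitals. The sterol element core TCACNCCAC was found in 1 member (4.17%), Hmgcs1, at −137 to −129, against 1.44% of all genes and 1.41% of tested genes. CACGTG occurred in 5 members (20.8%), namely Hsd17b7, Insig1, Dhcr7, Sc5d and Scap, against 8.09% of all genes and 11.9% of tested genes. A match describes these letters in this window only, and sterol elements that depart from TCACNCCAC were not counted.

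The lipid synthesis genes were, as a group, well expressed in all 4 libraries. All 30 passed the filter on low values, and 26 averaged at least 20 TPM. Scd1, a stearoyl-CoA desaturase, had the highest level of the 30 in DMSO libraries, and Acaca, which makes malonyl-CoA, the lowest in all 4 libraries. Scd1 stood at 271 and 294 TPM in R406 libraries and at 352 and 349 TPM in DMSO libraries. Acaca stood at 3.40 and 4.19 TPM in R406 libraries and at 6.09 and 9.50 TPM in DMSO libraries. Members thus covered a wide span of abundance within the same pathway, as the plot of levels by library shows.

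**Figure D1:**
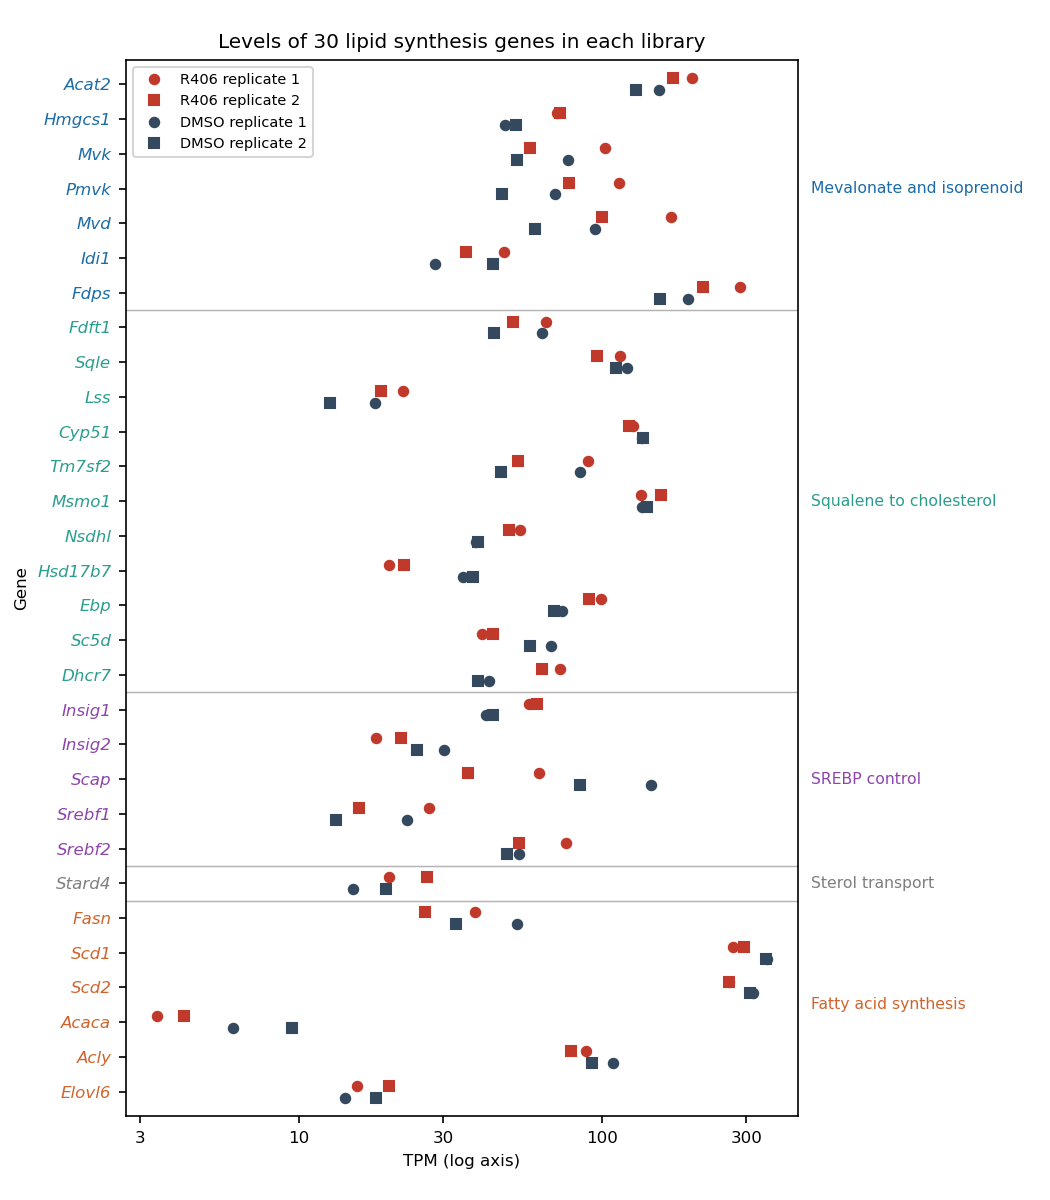
Levels of the 30 genes in TPM on a log axis, by branch, with R406 libraries in red above DMSO libraries in dark blue and circles and squares for replicates 1 and 2. Scd1, Scd2, Fdps and Acat2 lie at the high end and Acaca at the low end, and most R406 and DMSO points of a gene lie close together.

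No member was called by limma in either direction in the fit used here, which held no block for replicate number. With that block members were called in both directions, as the last section gives. The fit used here called 8.31% of all tested genes (593 higher, 4.26%, and 564 lower, 4.05%). At an unadjusted p under 0.05 there were 7 members, 3 higher (Hmgcs1, Dhcr7 and Insig1) and 4 lower (Hsd17b7, Sc5d, Scap and Acaca), among 3736 of the 13929 tested genes. The smallest adjusted p of the 30 was 0.0736, for Hsd17b7. Both R406 libraries lay above both DMSO libraries in 11 members, where 25.9% of tested genes did so, and below them in 9 members, where 30.2% did. In the other 10 members the groups overlapped. The median log2 difference of the 30 members, R406 minus DMSO, was 0.18, beside −0.015 over all tested genes. It turned to −0.017 without R406 replicate 1, and was 0.047 without DMSO replicate 2, 0.30 without DMSO replicate 1 and 0.36 without R406 replicate 2. The median of all tested genes in the same fits, in that order, was −0.15, −0.081, 0.050 and 0.084. A p above the threshold does not show that a gene stayed the same, and the 95% interval of the difference lay within 1 log2 unit of 0 in 16 of the 30.

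**Figure D2:**
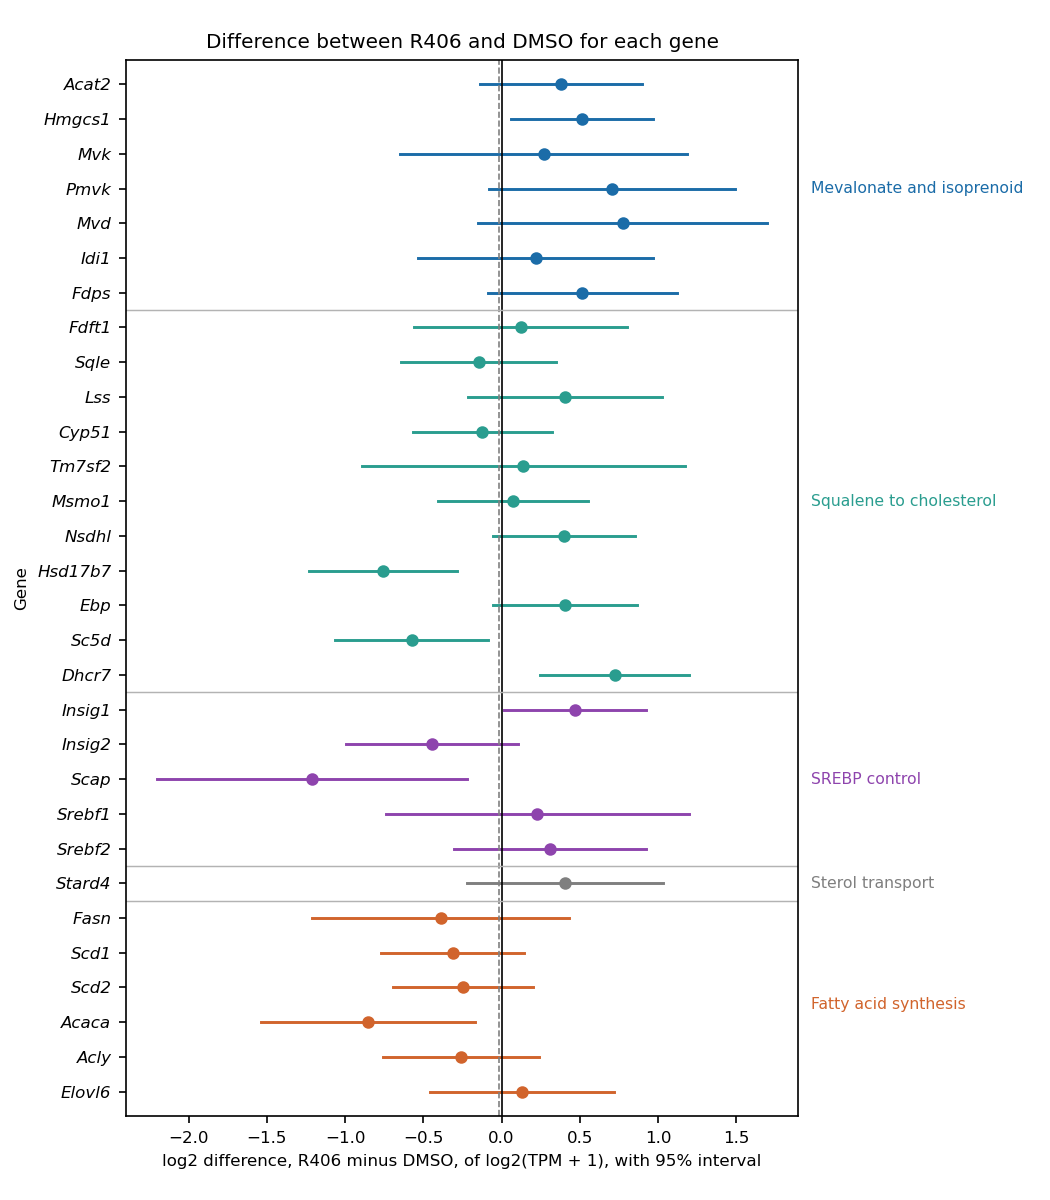
Log2 difference of each gene, R406 minus DMSO, on the log2(TPM + 1) scale, with its 95% interval from limma; the dashed line is the median of all tested genes at −0.015. All 7 mevalonate genes have points right of 0 and 5 of 6 fatty acid genes have points left of 0, while most intervals cross 0.

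The mevalonate and isoprenoid steps, which turn acetyl-CoA into farnesyl diphosphate, had higher mean levels with R406 for all 7 genes, by 1.15 to 1.73 times, and none passed the test. The summed level of the 7 was 987 and 731 TPM in R406 libraries, against 665 and 541 TPM in DMSO libraries, so the groups did not overlap. Their median log2 difference was 0.51. In 5 of the 7 both R406 libraries were above both DMSO libraries, where 25.9% of tested genes were.

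Acat2, the cytosolic thiolase that opens the route, had 199 and 171 TPM in R406 libraries and 154 and 129.6 TPM in DMSO libraries. The R406 libraries were the higher pair, with a log2 difference of 0.38 ± 0.20 (SE) and an adjusted p of 0.305 by limma. Hmgcs1, which makes HMG-CoA in the cytosol and whose promoter holds the sterol element shown above, had 70.9 and 72.6 TPM in R406 libraries and 48.0 and 52.0 TPM in DMSO libraries. Its replicates lay close together and the groups were well apart, at a log2 difference of 0.51 (95% interval 0.062 to 0.97) and an adjusted p of 0.146 by limma.

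Mvk, Pmvk and Mvd add phosphates to mevalonate and then decarboxylate it. Mvk had 102 and 57.9 TPM in R406 libraries and 77.3 and 52.5 TPM in DMSO libraries, so the groups overlapped. Pmvk had 114 and 78.1 TPM in R406 libraries and 70.3 and 46.8 TPM in DMSO libraries. Mvd had 169 and 99.9 TPM in R406 libraries and 94.7 and 60.2 TPM in DMSO libraries, a log2 difference of 0.77. In each of these genes replicate 1 was well above replicate 2 within both groups, and the intervals were wide, from −0.15 to 1.70 for Mvd, with an adjusted p of 0.253 by limma. Without 1 library the log2 difference of Mvd ran from 0.40 (without R406 replicate 1) and 0.45 (without DMSO replicate 2) to 1.10 (without DMSO replicate 1) and 1.15 (without R406 replicate 2). For Mvk it was 0.27 with all libraries, −0.0058 without DMSO replicate 2 and −0.14 without R406 replicate 1.

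Idi1 interconverts the isoprenoid building blocks and Fdps joins them into farnesyl diphosphate. Idi1 had 47.4 and 35.7 TPM in R406 libraries and 28.2 and 43.9 TPM in DMSO libraries. These groups overlapped, and the log2 difference of 0.22 became −0.091 without DMSO replicate 1. Fdps had 285 and 216 TPM in R406 libraries and 192 and 156 TPM in DMSO libraries, a log2 difference of 0.52 with an adjusted p of 0.244 by limma. The R406 libraries of Fdps were both above the DMSO libraries.

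The 11 steps from squalene to cholesterol did not share a direction. Their summed level was 840 and 769 TPM in R406 libraries, against 818 and 735 TPM in DMSO libraries, so the groups overlapped. Of the 11, 7 had a positive and 4 a negative log2 difference, with a median of 0.12. Both R406 libraries were above both DMSO libraries for Lss, Nsdhl, Ebp and Dhcr7, and below them for Cyp51, Hsd17b7 and Sc5d. The log2 ratio of the summed levels, 0.052, turned to −0.023 without DMSO replicate 2 and to −0.014 without R406 replicate 1.

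**Figure D3:**
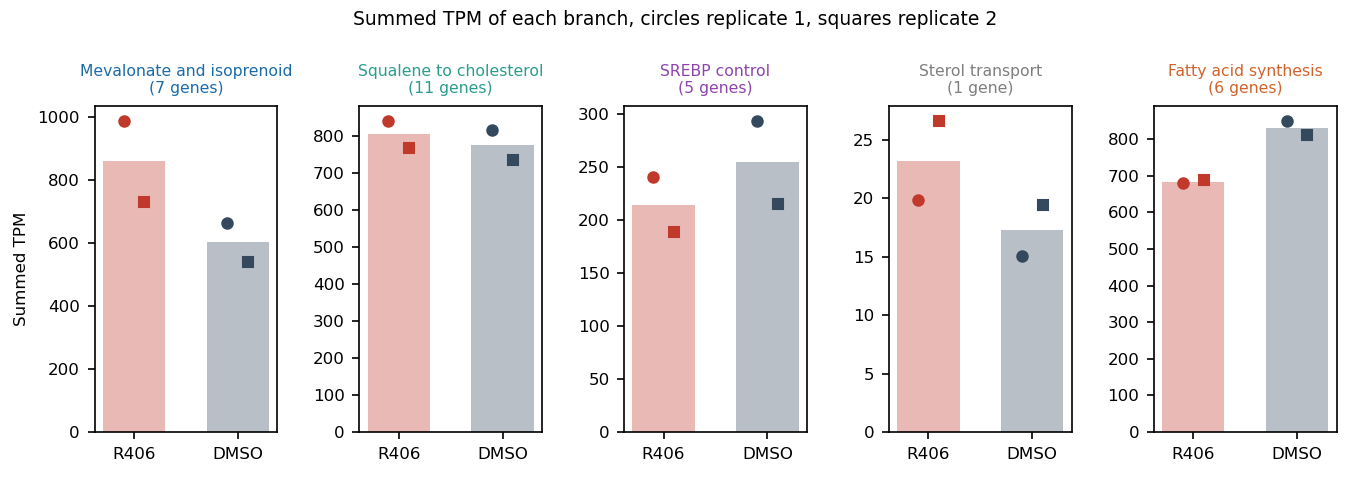
Summed TPM of each branch in R406 (left, red) and DMSO (right, dark blue) libraries, with bars at the mean of 2 libraries and circles and squares for replicates 1 and 2; each panel has its own axis from 0. R406 libraries lie above both DMSO libraries for the mevalonate steps (987 and 731 against 665 and 541 TPM) and below both for fatty acid synthesis (679 and 687 against 849 and 811 TPM).

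Dhcr7 and Hsd17b7 stood furthest apart between the groups in this branch, in opposite directions. Dhcr7, which makes cholesterol in its final reduction, had 72.6 and 63.5 TPM in R406 libraries and 42.5 and 39.0 TPM in DMSO libraries. It averaged 68.0 ± 6.41 TPM with R406 and 40.8 ± 2.45 TPM with DMSO (SD, n = 2 each), which is 1.67 times as high, with a log2 difference of 0.72 (95% interval 0.24 to 1.20). Its adjusted p was 0.0839 by limma. In other fits without a replicate block Dhcr7 passed at 0.0382 after quantile normalisation and at 0.0390 after median centring. It also passed at 0.0311 after TPM was rescaled with mitochondrial, ribosomal protein and predicted Gm genes left out. Hsd17b7, the 3-ketosteroid reductase of the sterol C4 demethylation complex, had 19.8 and 22.2 TPM in R406 libraries and 34.8 and 37.7 TPM in DMSO libraries. It averaged 21.0 ± 1.70 TPM with R406 and 36.2 ± 2.04 TPM with DMSO (SD, n = 2 each), with a log2 difference of −0.76 (95% interval −1.23 to −0.29) and an adjusted p of 0.0736 by limma. Both groups of Hsd17b7 were tight and did not overlap.

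Sc5d, the sterol C5 desaturase that acts just before Dhcr7, was on the lower side. It had 40.3 and 43.8 TPM in R406 libraries and 68.3 and 58.1 TPM in DMSO libraries. The groups were apart, at a log2 difference of −0.57 (95% interval −1.06 to −0.084) and an adjusted p of 0.138 by limma. Neighbouring enzymes of the late route, Sc5d and Dhcr7, thus had log2 differences of opposite sign, and neither passed the test.

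Nsdhl and Ebp, both on the X chromosome, were alike in size of difference. Nsdhl, the C4 decarboxylase, had 53.8 and 49.4 TPM in R406 libraries and 38.6 and 39.1 TPM in DMSO libraries. Ebp, the sterol isomerase, had 99.5 and 90.9 TPM in R406 libraries and 73.7 and 69.5 TPM in DMSO libraries. Both had a log2 difference of 0.40, with adjusted p-values of 0.232 and 0.233 by limma, and R406 above DMSO in every library. Xist, the X-inactivation RNA, overlapped between the groups, at 14.1 and 9.54 TPM with R406 and 7.72 and 11.9 TPM with DMSO, and its part in these values was not tested.

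The earlier enzymes of this branch differed less. Fdft1, squalene synthase, had 65.4 and 50.9 TPM in R406 libraries and 63.6 and 44.0 TPM in DMSO libraries. Sqle, the squalene epoxidase and a rate-limiting step, had 115 and 96.7 TPM in R406 libraries and 122 and 112 TPM in DMSO libraries. Both genes overlapped between the groups, with intervals of the log2 difference from −0.56 to 0.80 for Fdft1 and from −0.64 to 0.35 for Sqle. Without DMSO replicate 2 and without R406 replicate 1 the difference of Fdft1, 0.12, became −0.14 and −0.054. Lss, which closes squalene epoxide into lanosterol, had 22.1 and 18.7 TPM in R406 libraries and 17.9 and 12.7 TPM in DMSO libraries. The groups of Lss did not overlap, but its R406 and DMSO replicates came close, and the adjusted p was 0.355 by limma.

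Cyp51, Tm7sf2 and Msmo1 take the first methyl groups off lanosterol and reduce the ring. Cyp51 had 127 and 123 TPM in R406 libraries and 136 and 136 TPM in DMSO libraries, a small gap with a log2 difference of −0.12 (95% interval −0.57 to 0.32). Msmo1 had 135 and 157 TPM in R406 libraries and 136 and 141 TPM in DMSO libraries. Tm7sf2 had 90.2 and 53.0 TPM in R406 libraries and 84.5 and 46.5 TPM in DMSO libraries. In Tm7sf2 the replicates of a group differed far more than the groups did. The log2 difference of Msmo1, 0.073, was −0.034 without R406 replicate 2, and that of Tm7sf2, 0.14, was −0.29 without DMSO replicate 2 and −0.24 without R406 replicate 1.

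The genes that control SREBP pointed in different directions. Their summed level was 240.3 and 188 TPM in R406 libraries, against 293 and 215 TPM in DMSO libraries, and the groups overlapped. Scap, the sterol-sensing escort of SREBP, had 61.9 and 36.1 TPM in R406 libraries and 145 and 84.9 TPM in DMSO libraries. Its log2 difference was −1.21 (95% interval −2.20 to −0.22), with R406 at 0.43 times the DMSO mean. Both R406 libraries were below both DMSO libraries, but replicate 1 was far above replicate 2 in each group, and the adjusted p was 0.126 by limma. In fits of all 4 libraries without a replicate block, Scap passed only after the same rescaling, at an adjusted p of 0.0401 by limma. Its log2 difference was −1.59 without R406 replicate 1 and −1.60 without DMSO replicate 2. It was −0.83 without DMSO replicate 1 and −0.83 without R406 replicate 2.

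INSIG proteins hold the SCAP and SREBP complex in the endoplasmic reticulum, and Insig1 is itself a well-known SREBP target. Insig1 had 57.6 and 61.3 TPM in R406 libraries and 41.5 and 43.8 TPM in DMSO libraries, a log2 difference of 0.47 (95% interval 0.018 to 0.92) with an adjusted p of 0.174 by limma. Insig2, the more constitutive partner, had 18.0 and 21.7 TPM in R406 libraries and 30.1 and 24.5 TPM in DMSO libraries, a log2 difference of −0.44 with an adjusted p of 0.265. Neither gene overlapped between the groups, and the INSIG paralogs thus lay on opposite sides of 0.

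The SREBP genes themselves overlapped between the groups. Srebf2, which encodes the SREBP most tied to sterol synthesis, had 76.0 and 53.4 TPM in R406 libraries and 53.5 and 48.8 TPM in DMSO libraries. Srebf1, which is tied more to fatty acid synthesis, had 26.9 and 15.8 TPM in R406 libraries and 22.9 and 13.2 TPM in DMSO libraries. The log2 differences were 0.31 and 0.23, with adjusted p-values of 0.467 and 0.753 by limma, and that of Srebf1 was −0.14 without DMSO replicate 2 and also −0.14 without R406 replicate 1. Gene-level TPM does not show how much SREBP protein was cleaved. Stard4, a soluble carrier of cholesterol between membranes and itself under SREBP control, had 19.8 and 26.6 TPM in R406 libraries and 15.1 and 19.4 TPM in DMSO libraries. The groups of Stard4 were separated by a narrow gap, with a log2 difference of 0.41 and an adjusted p of 0.360.

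Fatty acid synthesis genes were lower with R406 in 5 of 6 cases, and none passed the test. Their summed level was 679 and 687 TPM in R406 libraries, against 849 and 811 TPM in DMSO libraries, so the groups did not overlap. The median log2 difference of the 6 was −0.28. Both R406 libraries were below both DMSO libraries for Scd1, Scd2, Acaca and Acly, 4 of the 6, where 30.2% of tested genes were.

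Acly makes the cytosolic acetyl-CoA from which both lipid routes start. It had 88.7 and 79.4 TPM in R406 libraries and 109 and 92.6 TPM in DMSO libraries, at an adjusted p of 0.463 by limma. Acaca, acetyl-CoA carboxylase, commits acetyl-CoA to fatty acids, and its values, given above, put R406 at 0.49 times the DMSO mean. Its log2 difference was −0.85 (95% interval −1.54 to −0.17) at an adjusted p of 0.122, and the DMSO libraries were further apart than the R406 libraries. Fasn, which builds palmitate on the malonyl-CoA that Acaca makes, had 38.1 and 26.2 TPM in R406 libraries and 52.6 and 33.0 TPM in DMSO libraries. R406 replicate 1 of Fasn lay above DMSO replicate 2, so the groups overlapped, and the interval ran from −1.21 to 0.43.

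The stearoyl-CoA desaturases put a double bond into newly made fatty acids. Scd2 had 263 and 263 TPM in R406 libraries and 315 and 309 TPM in DMSO libraries. Scd1, with the values given above, averaged 283 ± 16.7 TPM with R406 and 351 ± 2.01 TPM with DMSO (SD, n = 2 each). Both desaturases were lower in both R406 libraries, by log2 differences of −0.31 for Scd1 and −0.24 for Scd2, with adjusted p-values of 0.337 and 0.437 by limma. Elovl6, which lengthens palmitate, had 15.6 and 19.9 TPM in R406 libraries and 14.2 and 18.0 TPM in DMSO libraries. It was the member of this branch with a positive difference, 0.13, which turned to −0.030 without DMSO replicate 1 and to −0.038 without R406 replicate 2, and its groups overlapped.

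Several members share sequence or ground with other genes, and the kit does not mark strand. Scd1 and Scd2 are close paralogs whose reads may be split between them. Insig1 overlaps Gm35223 over 7251 bases on the opposite strand, Lss overlaps 4930483K19Rik over 11269 bases, Mvd overlaps Gm51557 over 3213 bases and Acaca overlaps Gm11437 over 19116 bases. Fdft1 overlaps Ctsb over 774 bases. These overlaps are of whole genes, introns included, and whether exons are shared was not looked at. Where exons are shared, reads cannot be told apart, so the values of these members may be less certain.

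The genes around the core route were read from 5 lists of the same pathways, with 16, 16, 10, 25 and 14 genes tested in the order below. Together the lists gave 5 genes called higher and 1 called lower, where 4.26% and 4.05% of all tested genes were called. That split depended on scaling, at 6 higher and 5 lower after quantile normalisation, 6 and 4 after median centring and 7 and 6 after the rescaling described above. The isoprenoid branch points and SREBP processing genes had 0 of 16 called by limma and a median log2 difference of −0.092, with 4 of 16 at an unadjusted p under 0.05. Pgrmc1, a haem-binding partner of sterol cytochromes, had 581 and 569 TPM in R406 libraries and 997 and 916 TPM in DMSO libraries, at an adjusted p of 0.0774. Both R406 libraries of Pgrmc1 lay below both DMSO libraries without the gene passing the test. Nus1, a subunit of the dolichol synthase, and Pdss1, of ubiquinone synthesis, differed by −0.70 and 0.62 on the log2 scale, at adjusted p-values of 0.0789 and 0.116.

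Uptake and handling of sterols and lipoproteins gave 1 gene higher and 1 lower of 16 tested among 19 listed, with a median of −0.097. Lpl, lipoprotein lipase, which frees fatty acids from lipoproteins, rose to 12.7 and 17.5 TPM in R406 libraries, against 2.19 and 2.93 TPM in DMSO libraries. Its log2 difference was 2.17 at an adjusted p of 0.0183, and it passed without each library in turn but not with no filter on low values (adjusted p 0.0638). Nceh1, a cholesteryl ester hydrolase, fell to 14.1 and 13.3 TPM in R406 libraries, against 26.2 and 29.4 TPM in DMSO libraries. Its log2 difference was −0.97 at an adjusted p of 0.0449, a call that was lost without any one of the 4 libraries. Mylip, the ligase that marks lipoprotein receptors for breakdown, and Lrp8, a lipoprotein receptor, differed by 0.83 and −0.92 on the log2 scale, at adjusted p-values of 0.0654 and 0.0902. Lpl and Nceh1 are also expressed by macrophages, whose markers fell here, while Lpl rose. The part of macrophages in these values was not tested.

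Sterol efflux and LXR genes, listed with some sterol hydroxylases, had 0 of 10 called by limma. Of the 10, 1 had an unadjusted p under 0.05, and the median was 0.11. Cyp27a1, a mitochondrial sterol hydroxylase, had 19.3 and 13.4 TPM in R406 libraries and 8.81 and 7.72 TPM in DMSO libraries, at an adjusted p of 0.0949. Abca1, the cholesterol exporter, had 9.11 and 10.4 TPM in R406 libraries and 6.59 and 7.69 TPM in DMSO libraries, at an adjusted p of 0.271. R406 libraries were the higher pair for both Cyp27a1 and Abca1. Ch25h, which makes another oxysterol, had a log2 difference of 0.42 at an adjusted p of 0.231.

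Elongation, desaturation and esterification of fatty acids gave 4 genes higher and 0 lower of 25 tested among 28 listed, with a median of 0.13. At an unadjusted p under 0.05 there were 7 of the 25, beside 3736 of all 13929 tested genes. Pnpla3, a lipid droplet protein and SREBP target, rose to 8.59 and 6.23 TPM in R406 libraries, against 1.01 and 1.17 TPM in DMSO libraries, a log2 difference of 2.00 at an adjusted p of 0.0183. Hacd2, a dehydratase of very long chain elongation, rose to 96.0 and 88.4 TPM in R406 libraries, against 39.2 and 36.9 TPM in DMSO libraries, a log2 difference of 1.25 at an adjusted p of 0.0264. Agpat2, which adds the second acyl chain in glycerolipid synthesis, rose to 34.0 and 27.4 TPM in R406 libraries, against 13.4 and 13.2 TPM in DMSO libraries, at an adjusted p of 0.0375. Elovl7, an elongase, rose to 3.54 and 2.50 TPM in R406 libraries, against 0.366 and 0.853 TPM in DMSO libraries, at an adjusted p of 0.0476. Pnpla3 passed without each library in turn, and none of the 4 passed with no filter on low values. Hacd2 did not pass without DMSO replicate 1 (adjusted p 0.115) or DMSO replicate 2 (0.121), and Elovl7 did not without DMSO replicate 1 (0.153) or R406 replicate 1 (0.0675), nor with a pseudocount of 0.1 (0.0606). Agpat2 passed without R406 replicate 2 and gave 0.0850 to 0.155 without each of the other libraries. Epithelial markers, given above, rose in the same libraries, and their part in these calls was not tested.

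Fatty acid oxidation, the opposite route, had 0 of 14 tested genes called by limma among 16 listed, with 2 at an unadjusted p under 0.05 and a median of −0.31. Cpt1a, which admits fatty acids to mitochondria, had 28.2 and 27.8 TPM in R406 libraries and 46.9 and 43.6 TPM in DMSO libraries, at an adjusted p of 0.0869. Cpt1a was lower in both R406 libraries without passing the test.

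**Figure D4:**
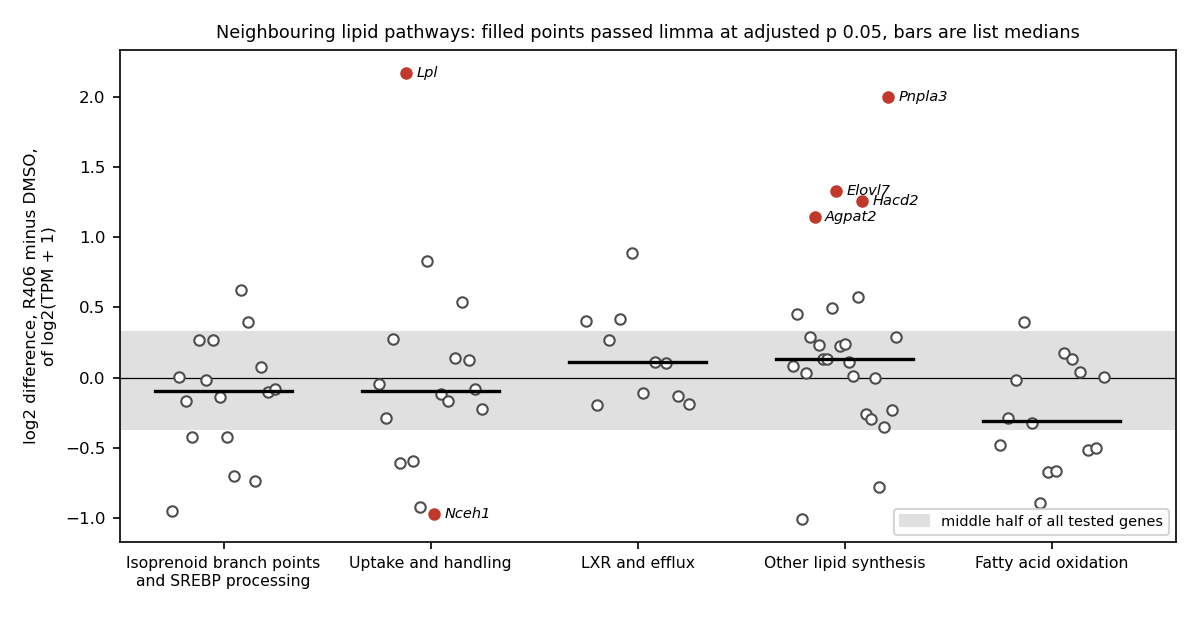
Log2 difference, R406 minus DMSO, on the log2(TPM + 1) scale for the tested genes of 5 neighbouring lists; filled points passed limma at an adjusted p of 0.05, bars are list medians and the grey band is the interquartile range of all tested genes. Lpl at 2.17 and Pnpla3 at 2.00 stand well above the rest, and Nceh1 at −0.97 is the filled point below 0.

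Tagged Nfatc1 peaks were found at most of the members. A peak counted if it overlapped the gene or 1 kb on either side of it. The R406 list did so at 27 of 30 members (90.0%), where 66.1% of tested genes had a peak, and the DMSO list at 21 of 30 (70.0%), where 48.1% did. In both lists 20 members had a peak, where 45.1% of tested genes did, which is 20 of the 27 members in the R406 list and 20 of the 21 in the DMSO list. For genes averaging 20 TPM or more, the shares were 24 of 26 members (92.3%), beside 71.6% of genes, in the R406 list, and 18 of 26 (69.2%), beside 52.9%, in the DMSO list. The R406 list held 36885 peaks and the DMSO list 21246, with 1 library each, so a peak in the R406 list alone does not show a change at that gene. Fold enrichments and p-values of peaks are the authors' own.

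Peaks sat close to gene starts. Of the 24 members in the promoter table, 19 (79.2%) had a peak within 1 kb of a start in the R406 list, beside 57.7% of tested genes, and 15 (62.5%) in the DMSO list, beside 39.7%. The members with a peak in the R406 list and not in the DMSO list were Fdps, Cyp51, Tm7sf2, Nsdhl, Ebp, Srebf1 and Scd1, which is 23.3% of the members beside 21.0% of tested genes. Lss had a peak in the DMSO list alone, and Pmvk and Sc5d had none in either list (6.67% of the members, beside 30.8% of tested genes).

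The highest fold enrichment among the members was at Srebf2, the gene of the sterol SREBP, at 34.8 in the R406 list and 23.3 in the DMSO list. Its summits lay at −276 in the R406 list and at −208 in the DMSO list, counted from the gene start, near the upstream end of the promoter printed above. Acat2 followed with 31.0 in the R406 list and 12.4 in the DMSO list, then Idi1 with 25.9 and 13.1 and Fasn with 24.0 and 16.8 in the same lists. These peaks lay at the starts of an early, a middle and a fatty acid enzyme. Of the 20 members with peaks in both lists, 15 had their highest fold in the R406 list and 5 in the DMSO list. This comparison was not made for other genes, so it does not show that the split is particular to the members. Sites were not matched, so at some members, such as Stard4, Dhcr7, Msmo1 and Elovl6, the compared folds belong to different peaks. The median fold of all peaks, a different measure from the highest fold at a gene, was 8.86 in the R406 list and 8.74 in the DMSO list. With 1 library per condition there is no replicate check of these folds.

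Peaks and promoter motifs could be set side by side at Hmgcs1 and Hsd17b7. At Hmgcs1 the R406 peak (chr13:119689837-119690811, fold 20.2) had its summit 130 bases after the start. The DMSO peak (chr13:119690004-119690688, fold 12.4) had its summit at −135, inside the sterol element match at −137 to −129. Both peaks covered that match. At Hsd17b7 the R406 summit lay 29 bases after the start (fold 19.6) and the DMSO summit at −120 (fold 9.47), with CCAAT boxes of the printed promoter at −165, −73 and −12. The NFAT core GGAAA, a search added after the peak values were seen, was found in 15 of the 24 members with a sequence (62.5%), against 64.4% of all genes. Its share among members was thus near that of all genes.

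**Figure D5:**
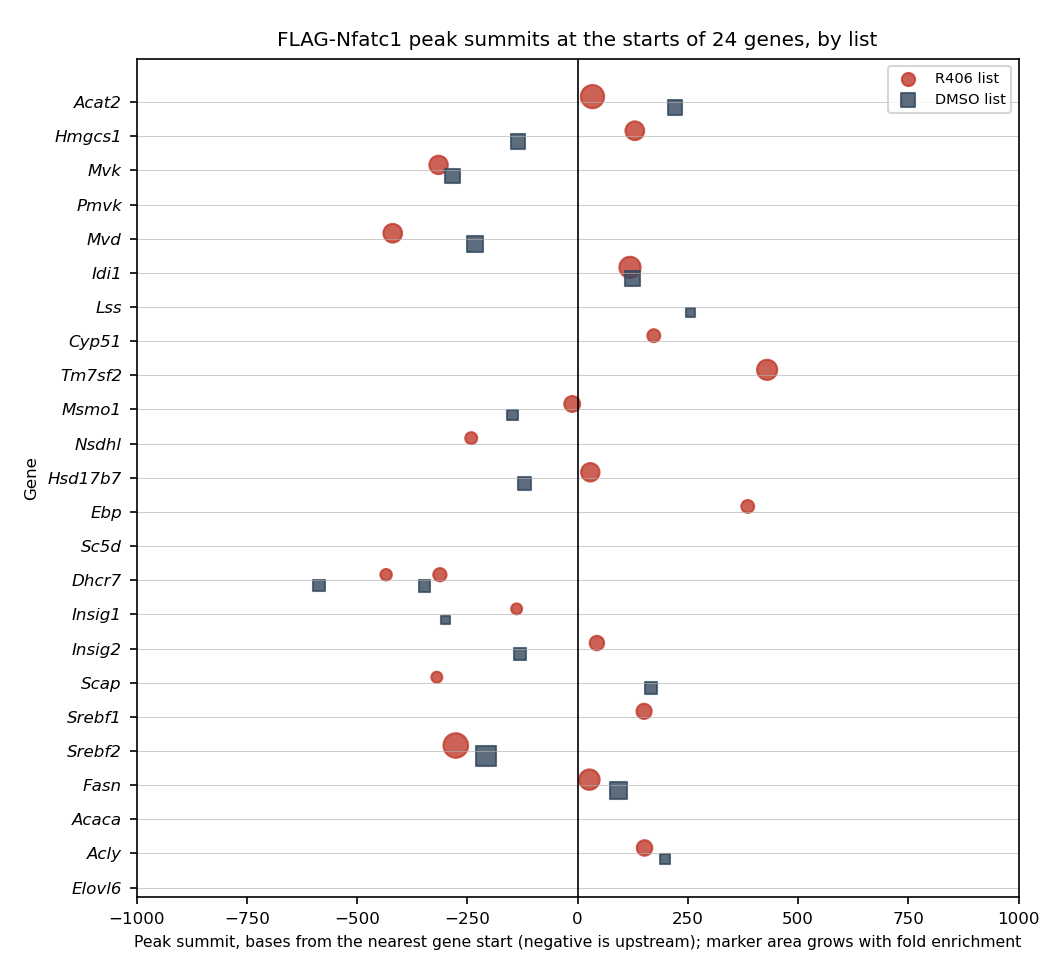
Summits of tagged Nfatc1 peaks within 1 kb of the start of the 24 members with a promoter entry, in bases from the nearest start, with R406 as red circles, DMSO as dark blue squares and larger markers for a higher fold. Most summits lie close to the start, and Srebf2 carries the largest marker (34.8 in the R406 list). The rows of Pmvk, Sc5d, Acaca and Elovl6 are empty, where Acaca is drawn at its start inside the gene.

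Peaks and RNA are set side by side for some members. Hmgcs1, Mvd and Acat2, with positive log2 differences, had a peak near the start in both lists, and so did Hsd17b7, Scap and Fasn, with negative ones. Dhcr7, at a log2 difference of 0.72, had peaks near different starts in both lists. Near chr7:143822603 the folds were 7.59 in the R406 list and 8.01 in the DMSO list. Near chr7:143829620 they were 10.1 in the R406 list and 7.29 in the DMSO list. Elovl6 had no peak within 1 kb of its start in either list, and Acaca none within 1 kb of the internal start described above. Both had peaks inside the gene. The highest folds of Acaca and Elovl6 were 6.96 and 14.5 in the R406 list and 8.74 and 8.01 in the DMSO list. At Elovl6 these folds belong to different sites. RNA and CUT&Tag came from different cultures, and the CUT&Tag cells carried introduced Nfatc1, and the relation between peaks and RNA was not tested.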

How the data were processed

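RNA-seq was read from 4 libraries (2 R406, 2 DMSO) and tagged Nfatc1 CUT&Tag from 2 peak lists (1 R406, 1 DMSO). The authors deposited TPM per gene, in a table and in single files with equal values. Tools named in the submitters' processing notes were HISAT2 2.1.0 with StringTie 2.0 (RNA) and Bowtie2 2.2.5 with MACS2 2.1.2 (CUT&Tag), on mm10. How multiply mapped reads and the blank were handled is not given in the sources used here. Per the labels' protocols, the RNA kit was NEBNext Ultra, which does not mark strand. The authors deposited for each peak a score, its fold enrichment and p- and q-values as −log10, and the lowest −log10 p-value was 5.00 in the R406 list and 5.03 in the DMSO list.

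TPM was not scaled further. The 13929 genes averaging 1 TPM or more entered limma 3.58.1 (R 4.3.3) as log2(TPM + 1), with a trended prior variance, 2 residual degrees of freedom and Benjamini-Hochberg adjustment at 0.05. Fold changes on this scale understate the change of low genes, and a TPM total is fixed, so higher levels of some transcripts lower the rest. An exact permutation test of 2 against 2 libraries cannot go below a two-sided p of 0.333, so none was run on summed levels. Values listed at 0 may be failed estimates. In simulated data the model missed most changes of 1 log2 unit and called most of those of 2 log2 units. Peaks were joined to RefSeq genes of GRCm38.p6 in Python 3.11.15, with an overlap of at least 1 base, over 13301 tested genes with coordinates.

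Groups and replicate numbers came from the sample titles. The members, the lists and the tests were chosen with earlier results of these data known. All 30 members are named, with up to 4 genes of smallest p from each other list and up to 2 markers per cell type, those at 0 included. Alternatives were other pseudocounts, filters, scalings, a prior without trend, a replicate block and each library left out in turn, and for peaks a stricter threshold, a window of 5 kb and summits alone. Some genes of the lists are not reported here. Motif shares and summed levels carry no test.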

Additional observations from a re-analysis of the deposited data

How the results depend on the processing

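Over 12 alternatives, 327 of 360 differences of the 30 members kept their direction and side of the threshold, 21 passed it anew and 12, in 7 members, changed sign. A pseudocount of 0.1 gave 4 neighbouring genes higher. With no filter 0 genes were called higher and 0 lower (5394 of 27879 at an unadjusted p under 0.05), and 0 and 0 on the neighbouring lists. A mean of at least 5 TPM gave 311 higher and 332 lower, and 3 neighbouring genes higher. Quantile normalisation gave 850 lower, 1 member higher (Dhcr7) and 5 neighbouring genes lower. Median centring gave 933 higher, 1 member higher (Dhcr7) and 4 neighbouring genes lower. Rescaling without mitochondrial, ribosomal protein and Gm genes gave 1135 higher and 1019 lower, 1 member higher (Dhcr7), 1 lower (Scap) and 6 neighbouring genes lower, and a fatty acid log2 summed ratio of −0.24, against −0.28. The causes were not tested.

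Replicate numbers paired no cultures by label. Replicate 1 minus 2 correlated between the groups (r = 0.556 across 13929 genes, which are not independent), which is a hint from the data and not the design. With the replicate block 2128 genes were higher and 2535 lower, 10 members higher and 6 lower, and 11 neighbouring genes higher and 15 lower.

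Without each library in turn, 190 (DMSO replicate 1) to 896 (R406 replicate 2) genes were higher and 152 (DMSO replicate 1) to 597 lower, 0 to 0 members higher and 0 to 1 lower (Scap, without R406 replicate 1), and 2 to 6 neighbouring genes higher and 0 to 2 lower. The log2 summed ratio ran from 0.28 to 0.71 for mevalonate, −0.023 to 0.13 for squalene to cholesterol, −0.45 to −0.0071 for SREBP control, 0.20 to 0.63 for Stard4 and −0.31 to −0.25 for fatty acid synthesis. The log2 difference changed sign in some of these fits for 7 members, and ran from −0.14 to 0.67 for Mvk, −0.091 to 0.53 for Idi1, −0.14 to 0.38 for Fdft1, −0.29 to 0.56 for Tm7sf2, −0.034 to 0.18 for Msmo1, −0.14 to 0.60 for Srebf1 and −0.038 to 0.30 for Elovl6. The median of all genes moved between −0.15 and 0.084 in these fits, and that of the 30 members between −0.017 and 0.36. Over peak settings, 25 to 27 of 30 members had a peak in the R406 list and 17 to 23 in the DMSO list. With 2 libraries a group and no depth in TPM, differences of the size of the replicate gaps could not be shown.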
